A study of Rattus norvegicus with 10 samples.

Results

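MicroRNAs best known from heart and skeletal muscle were followed in a brainstem region that sends parasympathetic output to the heart. The probes were taken by name from a NanoString panel of rat microRNAs, as every microRNA probe numbered as miR-1, miR-133, miR-206, miR-208 or miR-499. These were 7 of the 420 microRNA probes, namely miR-1, miR-133a, miR-133b, miR-206, miR-208, miR-208b-3p and miR-499.

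The dorsal vagal complex of 10 male Sprague Dawley rats was punched out of 200 um sections, with 1 sample per animal. An age-matched control group (AMC, n = 3) was set beside animals after remote ischemic preconditioning (RIPC, n = 2), animals whose left anterior descending coronary artery was ligated (LAD, n = 3) and animals in which the ligation followed RIPC by 2 h (RIPC+LAD, n = 2). RIPC was done by closing the femoral vessels under anesthesia and LAD by opening the chest, and tissue of the ligated groups was taken 24 h later. The labels name no sham group, so the treatment cannot be told apart from its anesthesia and surgery. By the first part of their animal numbers, RIPC+LAD 1 and 2 formed a set of their own, as did AMC 2 and 3 and LAD 2 and 3. For RIPC+LAD this set and the treatment cannot be told apart.

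MicroRNAs are short RNAs that pair with messenger RNAs mainly through a seed, bases 2 to 8 counted from the 5′ end, and lower their translation or stability. MiR-1 and miR-133a are made together in heart and skeletal muscle, miR-206 and miR-133b together mainly in skeletal muscle, and miR-208, miR-208b and miR-499 lie within myosin heavy chain genes and follow myosin expression in striated muscle. In blood, several of them are used as markers of heart muscle injury.

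All 7 of 7 probes were paired with a mature rat microRNA of RefSeq on the GRCr8 assembly. The sequences are shown because they sort the probes into families with a common seed and show how small the difference between some family members is. Each is written 5′ to 3′ with the seed in capitals.
miR-1: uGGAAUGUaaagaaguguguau
miR-206: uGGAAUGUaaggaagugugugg
miR-133a: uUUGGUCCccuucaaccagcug
miR-133b: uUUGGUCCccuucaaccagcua
miR-208: aUAAGACGagcaaaaagc
miR-208b-3p: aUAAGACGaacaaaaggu
miR-499: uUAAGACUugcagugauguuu

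MiR-1 and miR-206 shared the seed GGAAUGU, miR-133a and miR-133b the seed UUGGUCC, and miR-208 and miR-208b-3p the seed UAAGACG. MiR-499 shared its whole seed with no other of these probes. Counted from 1 at the 5′ end, miR-133a and miR-133b were identical at 21 of 22 positions, the difference being G22A. MiR-1 and miR-206 were identical at 19 of 22, with A11G, A21G and U22G, and miR-208 and miR-208b-3p at 15 of 18, with G10A, A16G and C18U. The probe names carry no arm except for miR-208b-3p, so for the other 6 probes the arm was taken from the older plain name. How far the assay tells the close pairs apart was not tested.

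On GRCr8 the genes lay in pairs. MiR-1 was at chr18:2160339-2160360 and miR-133a at chr18:2157886-2157907, both on the minus strand within the gene Mib1, with 2368 bases between their hairpins. MiR-206 at chr9:30590747-30590768 and miR-133b at chr9:30594629-30594650 were on the plus strand within a long noncoding RNA gene, with 3801 bases between their hairpins. MiR-208 lay at chr15:32395568-32395585 within Myh6, which encodes the alpha myosin heavy chain, and miR-208b-3p at chr15:32421648-32421665 within Myh7, which encodes the beta chain, both on the minus strand. MiR-499 was at chr3:164570616-164570636 on the plus strand within Myh7b, a further myosin heavy chain gene.

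The total microRNA count was between 73293 and 102824 in 8 samples and lower in LAD 2 with 42893 and in LAD 3 with 28485, so levels are given as counts per 100000 microRNA counts, on which 1 count was worth 0.973 in AMC 3 and 3.51 in LAD 3. The synthetic control POS_A split the samples into a high set of 5 (AMC 1 to 3, RIPC 2 and LAD 1) and a low set of 5 (RIPC 1, LAD 2, LAD 3, RIPC+LAD 1 and RIPC+LAD 2). Relative to POS_A, the ligation control was highest in RIPC+LAD, where it was at 142% ± 43.1 (SD, n = 2), against 57.0% ± 25.05 for AMC (SD, n = 3), 58.8% ± 28.8 for RIPC (SD, n = 2) and 38.2% ± 15.2 for LAD (SD, n = 3). In every sample the 6 neuron-enriched microRNAs of the tissue check, among them miR-124 and miR-9, were above background, and together they held 10746 to 15105 per 100000. In bulk tissue, fewer cells of a type and less RNA per cell cannot be told apart.

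The first question was which of these microRNAs could be seen in brainstem at all. A probe was called detected where its count lay above the mean plus 2 SD of the 8 negative probes of the same sample, which have no target, in at least 2 samples. This threshold was between 4.75 counts in RIPC+LAD 2 and 11.7 counts in AMC 2. By this rule 5 of the 7 probes were detected (71.4%), where 253 of all 420 probes (60.2%) were. In all 10 samples 2 of the 7 were above the threshold, against 33.6% of all probes, and in no sample 2 of the 7, against 26.9%. Detection of the heart and muscle microRNAs was thus near that of the panel. Together the 7 probes took 0.125% to 0.204% of the microRNA counts of a sample, with 3 to 5 of them above the threshold. These shares include background. With the negative mean subtracted for each probe, the sums ran from 104 per 100000 in RIPC 1 to 149 in AMC 3. LAD 3, which had the highest share, was then at 148.

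**Figure D1:**
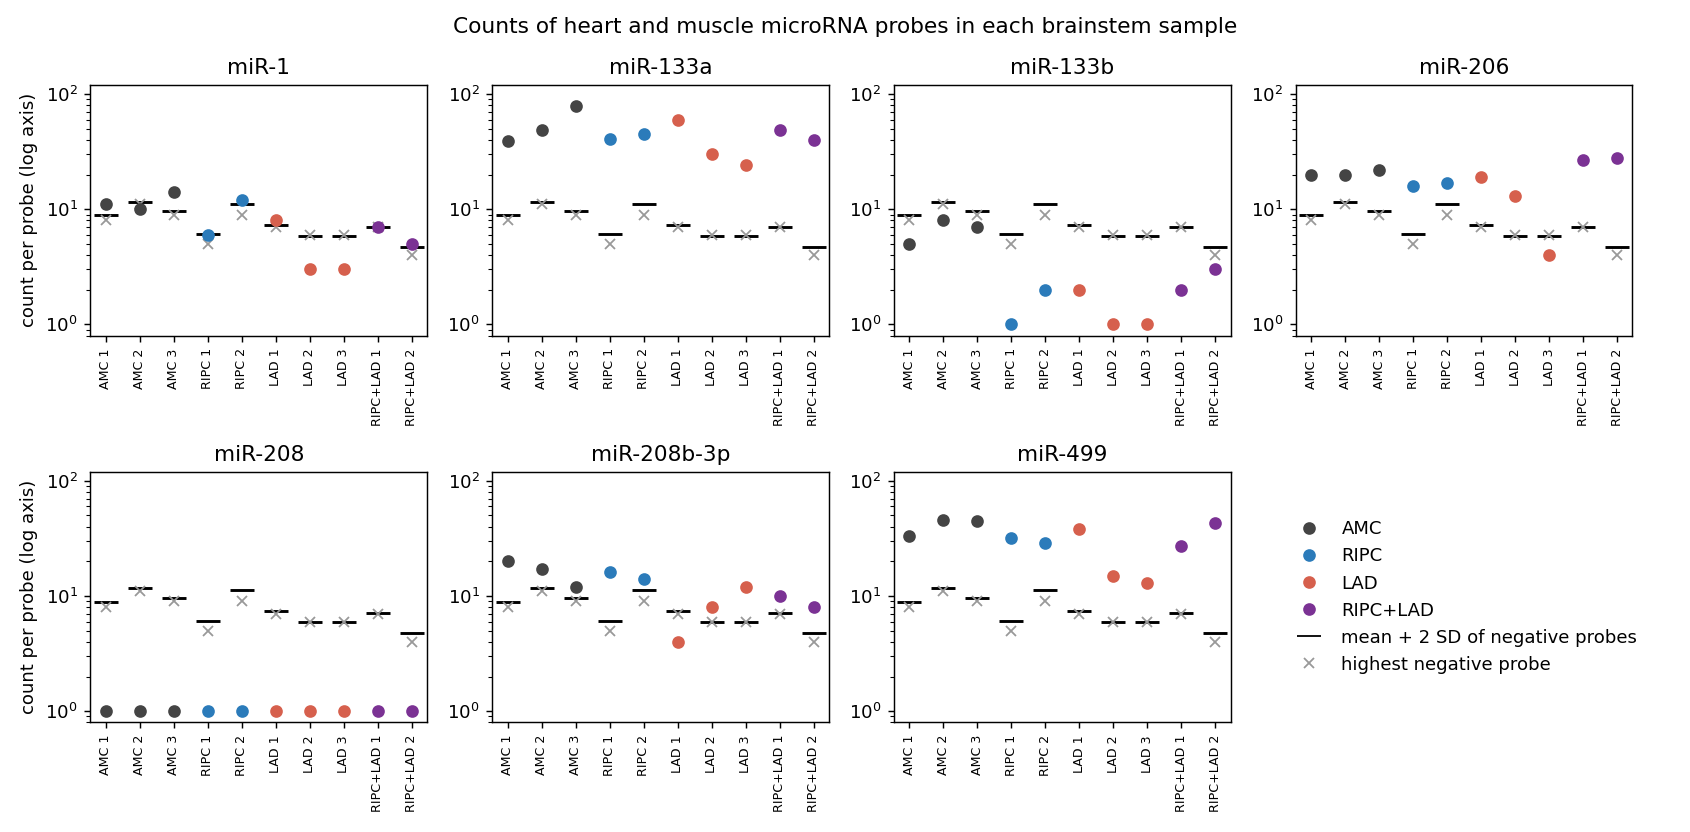
Count of each of the 7 probes (log axis) in each of the 10 samples, coloured by group, with the detection threshold of the sample as a black line and the highest negative probe as a cross. MiR-133a and miR-499 were above the line in all 10 samples, while miR-133b and miR-208 were above it in 0.

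MiR-133a, which in heart muscle restrains proliferation and growth, had the highest summed count of the 7. Its counts were 39, 49 and 79 in AMC 1 to 3, 41 and 45 in RIPC 1 and 2, 59, 30 and 24 in LAD 1 to 3, and 49 and 40 in RIPC+LAD 1 and 2. Every sample was above its threshold, and the summed count was 13.7 times the summed mean of the negative probes. The probe ranked between 75 and 108 of 420 in single samples, and 92 probes had a higher summed count. Its low counts in LAD 2 and LAD 3 came with low totals, since per 100000 these samples were at 69.9 and 84.3, above LAD 1 at 57.7.

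MiR-133b, whose mature sequence differs from miR-133a at the last base alone, was not above background. Its counts were 5, 8 and 7 in AMC, 1 and 2 in RIPC, 2, 1 and 1 in LAD, and 2 and 3 in RIPC+LAD. The AMC samples were the highest, but all 10 samples lay below their thresholds, and the summed count was 0.966 times that of the negative mean. The mean of the negative probes was itself 3.88 to 4.88 counts in AMC, against 2.75 and 4.50 in RIPC, 2.25 to 2.88 in LAD and 2.63 to 2.88 in RIPC+LAD. No fold change is given for miR-133b.

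MiR-499, encoded in Myh7b and known for its part in the slow muscle fiber program, had the next highest summed count. The counts were 33, 46 and 45 in AMC, 32 and 29 in RIPC, 38, 15 and 13 in LAD, and 27 and 43 in RIPC+LAD. Every sample was above its threshold, and the summed count was 9.69 times the negative mean. It ranked between 94 and 121 of 420, with 106 probes at a higher summed count.

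The microRNAs within the other myosin genes differed from each other. MiR-208, the cardiac microRNA of Myh6, had a count of 1 in all 10 samples, the lowest count that the deposited table holds. Of the 420 microRNA probes 9 were at 1 in every sample, and of the 8 negative probes 0 were, although 25 of their 80 single counts were 1. MiR-208b-3p, of Myh7, had 20, 17 and 12 counts in AMC, 16 and 14 in RIPC, 4, 8 and 12 in LAD, and 10 and 8 in RIPC+LAD. It was above the threshold in 9 samples, the exception being LAD 1 with 4 counts against 7.34, and its summed count was 3.65 times the negative mean.

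MiR-206, which in skeletal muscle promotes differentiation and in mouse helps nerve terminals regrow onto muscle after injury, had 20, 20 and 22 counts in AMC, 16 and 17 in RIPC, 19, 13 and 4 in LAD, and 27 and 28 in RIPC+LAD. It was above the threshold in 9 samples, all but LAD 3, where 4 counts stood against a threshold of 5.91. At the median level of the other samples, LAD 3 would have had 6.31 counts, and the exact 95% Poisson interval of its 4 counts, 3.83 to 36.0 per 100000, held that median of 22.1. Both RIPC+LAD samples had more counts than any other sample. Per 100000, however, LAD 2 at 30.3 lay between RIPC+LAD 2 at 30.0 and RIPC+LAD 1 at 33.5.

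MiR-1, one of the most abundant microRNAs of heart muscle, was near background here. Its counts were 11, 10 and 14 in AMC, 6 and 12 in RIPC, 8, 3 and 3 in LAD, and 7 and 5 in RIPC+LAD. It passed the threshold in 5 samples, which were AMC 1, AMC 3, RIPC 2, LAD 1 and RIPC+LAD 2, and in no group in all samples. The summed count was 2.38 times the negative mean. The summed count was 79 for miR-1 and 455 for miR-133a from the same locus, but how well each probe captures its target is not known, so these are not relative levels.

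**Figure D2:**
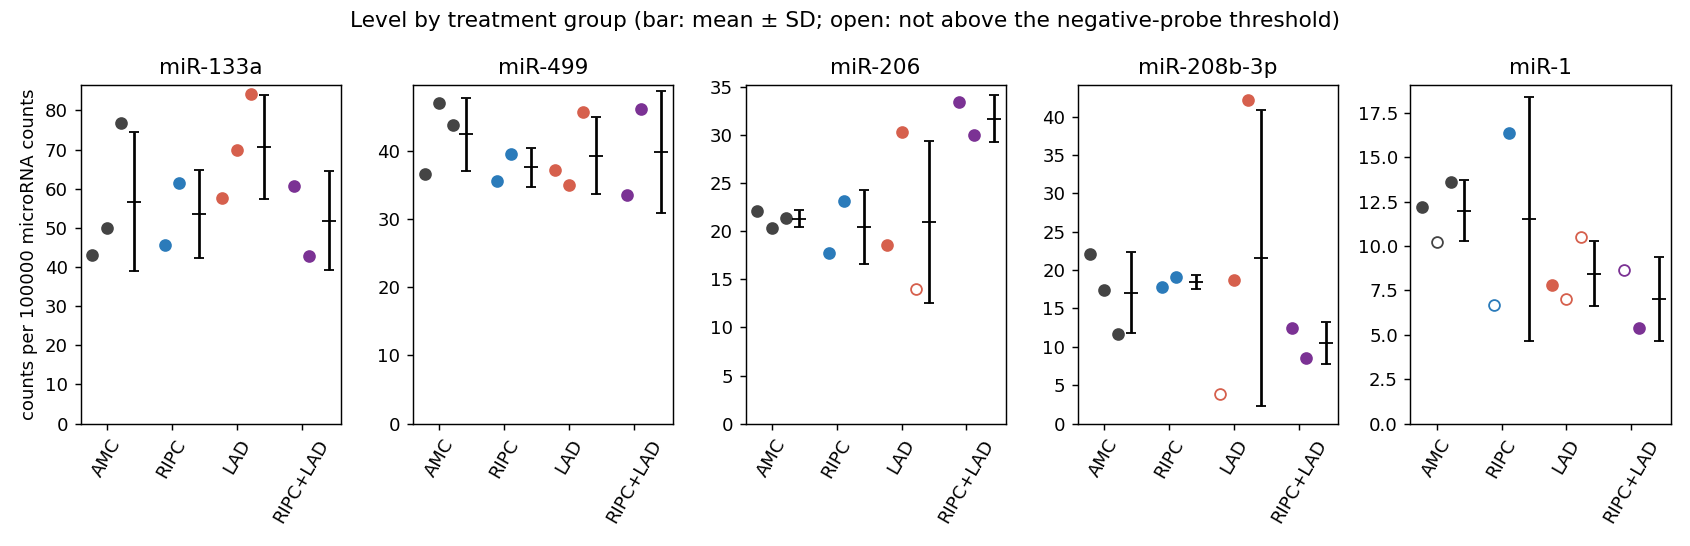
Counts per 100000 microRNA counts (linear axes from 0, each with its own range) of the 5 detected microRNAs in each sample by group, with the mean and SD beside the points and open circles for samples not above the threshold. MiR-206 in RIPC+LAD, at 30.0 and 33.5, lay above the AMC samples at 20.4 to 22.1, and miR-208b-3p in LAD spread from 3.91 to 42.1.

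The next comparison asked whether these microRNAs differed in the brainstem after the ligation alone. The LAD and AMC ranges overlapped for all 5 detected members, and edgeR's quasi-likelihood test called 0 of them, as of the 253 detected microRNAs (0%), at an adjusted p under 0.05. At an unadjusted p under 0.05 it gave 5.53% of the microRNAs and 0 of the 5 members. MiR-133a was at 70.6 ± 13.3 per 100000 in LAD (SD, n = 3) and 56.7 ± 17.8 in AMC (SD, n = 3). The log2 fold change stood at 0.22 ± 0.33 (SE), with a 95% interval from -0.48 to 0.91 and an edgeR adjusted p of 0.995. It was at 0.59 without AMC 3, the sample with the highest count, and at -0.29 with scaling to the positive controls, which moved the median of all detected microRNAs to -0.46.

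MiR-1 was at 8.45 ± 1.85 per 100000 in LAD (SD, n = 3) and 12.0 ± 1.71 in AMC (SD, n = 3), for a log2 fold change of -0.58 ± 0.45, with an interval from -1.54 to 0.37 and an edgeR adjusted p of 0.967. The 2 groups overlapped, and 1 of 3 LAD samples was above the threshold. LAD 2 and LAD 3 had 3 counts each, near their negative means of 2.38 and 2.25. With the negative mean subtracted, the log2 fold change of miR-1 was -1.03 ± 0.85, with an edgeR adjusted p of 0.979. MiR-499 was at 39.2 ± 5.64 in LAD (SD, n = 3) and 42.4 ± 5.33 in AMC (SD, n = 3), and its log2 fold change of -0.18 ± 0.30 had an interval from -0.81 to 0.46. MiR-206 was at 21.0 ± 8.40 in LAD (SD, n = 3) and 21.3 ± 0.871 in AMC (SD, n = 3), for a log2 fold change of -0.055 ± 0.34. Its sign turned to 0.13 without LAD 3, 0.035 without LAD 1 and 0.018 without AMC 3.

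MiR-208b-3p had the widest spread within a group. In LAD it was at 3.91, 18.7 and 42.1 per 100000, a mean of 21.6 ± 19.3 (SD, n = 3), against 22.1, 17.3 and 11.7 in AMC, a mean of 17.0 ± 5.24 (SD, n = 3). LAD 1, with 4 counts, had an exact 95% Poisson interval of 1.07 to 10.01 per 100000, and LAD 3, with 12 counts, one of 21.8 to 73.6. These intervals, which cover counting error only, did not overlap, while the LAD range held the whole AMC range. LAD 1 was in the high POS_A set and LAD 3 in the low set, and the part of this split in the spread was not tested.

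In counts per 100000, the LAD and AMC groups did not overlap for 7.91% of the detected microRNAs and for 0 of the 5 members. The median log2 fold change over the 5 members was -0.055, with 1 higher and 4 lower, and over all detected microRNAs it was -0.012.

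RIPC alone was then set against AMC. The groups overlapped for all 5 detected members, where 15% of the detected microRNAs did not overlap, and edgeR called 0 of the members and 0 of the 253 microRNAs (0%), with 1.19% of the microRNAs and 0 members at an unadjusted p under 0.05. MiR-133a was at 53.5 ± 11.2 per 100000 in RIPC (SD, n = 2) and miR-499 at 37.5 ± 2.86 (SD, n = 2), and their log2 fold changes were -0.21 ± 0.36 and -0.26 ± 0.32, both with an edgeR adjusted p of 0.997. Without AMC 3 that of miR-133a was at 0.17. MiR-206 was at 20.5 ± 3.84 in RIPC (SD, n = 2), for a log2 fold change of -0.15 ± 0.36.

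MiR-1 was at 6.66 and 16.4 per 100000 in RIPC 1 and RIPC 2, so that these 2 samples enclosed the AMC range of 10.2 to 13.6. MiR-208b-3p was at 17.8 and 19.1, inside the AMC range of 11.7 to 22.1. The median over the 5 members was -0.20 on the log2 scale, with 1 higher and 4 lower, and over all detected microRNAs -0.026.

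RIPC+LAD was set against LAD to ask whether preconditioning before the ligation went with another level. The microRNA with the greatest difference among the members was miR-206, at 33.5 and 30.0 per 100000 in RIPC+LAD 1 and 2 and at 18.6, 30.3 and 14.04 in LAD 1 to 3. LAD 2 lay between the RIPC+LAD samples, so the groups overlapped, as did those of the other 4 detected members, where 35.6% of the detected microRNAs did not. On the scale of the test, log2 CPM (log2 of the count relative to a library size that TMM, a trimmed mean over microRNAs, had adjusted), the means were 8.53 ± 0.10 in RIPC+LAD (SD, n = 2) compared with 7.80 ± 0.46 in LAD (SD, n = 3). The log2 fold change was 0.72 ± 0.36 (SE), with a 95% interval from -0.053 to 1.49 and an edgeR adjusted p of 0.309, and miR-206 ranked 54 of 253 by p.

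The test called 0 of 253 microRNAs (0%) between RIPC+LAD and LAD, while 17.4% had an unadjusted p under 0.05 and 0 of the 5 members did. With a covariate for the ligation control miR-206 was at 0.29 ± 0.60. With scaling to the positive controls it was at 1.63, with an edgeR adjusted p of 0.0332, and that scaling moved the median of all detected microRNAs to 0.98, so that miR-206 was at 0.65 relative to it. Without LAD 3, where it was below the threshold, its log2 fold change was 0.49. Within the low POS_A set, which holds LAD 2, LAD 3 and both RIPC+LAD samples, it was at 0.58 ± 0.45.

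MiR-133a was at 51.8 ± 12.6 per 100000 in RIPC+LAD (SD, n = 2), and its log2 fold change against LAD was -0.28 ± 0.37 with an edgeR adjusted p of 0.660. It was at -0.63 without RIPC+LAD 1 and at -0.11 without RIPC+LAD 2. With scaling to the positive controls this was 0.69, below the median shift of 0.98. MiR-499 was at 39.8 ± 8.95 in RIPC+LAD (SD, n = 2), and its log2 fold change was 0.18 ± 0.34 with an edgeR adjusted p of 0.797. Over the 5 members 2 were higher and 3 lower, with a median of -0.11 against 0.019 for all detected microRNAs.

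Between RIPC+LAD and AMC, 2 of the 5 detected members did not overlap, miR-206 being higher and miR-1 lower, where the groups did not overlap for 29.6% of the detected microRNAs. This comparison coincides wholly with the POS_A split, since all AMC samples were in the high set and RIPC+LAD 1 and 2 in the low one, while RIPC and LAD had samples in both. A covariate for the POS_A set is thus estimated from RIPC and LAD alone. It cannot separate the set from the treatment in this comparison. MiR-206 was at 31.7 ± 2.43 per 100000 in RIPC+LAD (SD, n = 2) and 21.3 ± 0.871 in AMC (SD, n = 3), for a log2 fold change of 0.66 ± 0.34, with an interval from -0.056 to 1.38 and an edgeR adjusted p of 0.596. With a covariate for the ligation control it was at 0.35 ± 0.48, and with one for the POS_A set at 0.54 ± 0.52. Scaling to the positive controls gave 1.14, or 0.68 relative to the median of all detected microRNAs.

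MiR-1 was at 8.67 and 5.36 per 100000 in RIPC+LAD 1 and 2 and at 12.2, 10.2 and 13.6 in AMC 1 to 3. Its log2 fold change was -0.69 ± 0.48, with an interval from -1.70 to 0.32 and an edgeR adjusted p of 0.651. These levels stand on 5 to 14 counts, with a negative mean of 2.63 to 2.88 counts in RIPC+LAD and 3.88 to 4.88 in AMC, and 3 of the 5 samples were above their thresholds. Without RIPC+LAD 1 the value was -1.11, and with the POS_A set as a covariate it was -0.24 ± 0.71.

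MiR-208b-3p was at 10.5 ± 2.70 per 100000 in RIPC+LAD (SD, n = 2), and its log2 fold change against AMC was -0.59 ± 0.62 with an edgeR adjusted p of 0.740. It was at -0.93 without RIPC+LAD 1 and at -0.38 without RIPC+LAD 2, and at 0.046 ± 0.92 once the ligation control was a covariate. With one for the POS_A set it was at -1.98 ± 0.82, where edgeR gave an adjusted p of 0.909. This covariate was estimated from RIPC and LAD alone. In these groups miR-208b-3p was at 19.1 and 3.91 per 100000 in the high set (RIPC 2 and LAD 1). In the low set it was at 17.8, 18.7 and 42.1 (RIPC 1, LAD 2 and LAD 3). The test called 0 of the 5 members and 0 of 253 microRNAs (0%) between RIPC+LAD and AMC, while 8.70% of the microRNAs had an unadjusted p under 0.05. Of the members 1 was higher and 4 were lower, with a median of -0.064 against -0.014 for all.

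Against RIPC alone, which adds the ligation to preconditioned animals, miR-206 was again the member with the greatest difference. It was at 17.8 and 23.2 per 100000 in RIPC 1 and 2, below both RIPC+LAD samples. The log2 fold change was 0.81 ± 0.38, with an interval from -0.0022 to 1.63 and an edgeR adjusted p of 0.537, and miR-206 ranked 19 of 253 by p. It was at 0.50 ± 0.50 once the ligation control was a covariate and at 0.69 ± 0.49 within the low POS_A set, where RIPC 1 stood alone for RIPC and was assumed to vary like the other samples.

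MiR-208b-3p was at 12.4 and 8.58 per 100000 in RIPC+LAD and at 17.8 and 19.1 in RIPC, so these groups did not overlap either. Its log2 fold change of -0.65 ± 0.68 had an edgeR adjusted p of 0.763. It was at -1.34 ± 0.68 with the POS_A set as a covariate and at -0.052 ± 0.88 with the ligation control. With 2 samples in each group, 46.2% of the detected microRNAs did not overlap, and 2 of the 5 members did not.

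MiR-1 overlapped between these groups, with a log2 fold change of -0.49 ± 0.53 and an edgeR adjusted p of 0.772, and it was at 0.033 without RIPC 2. The test called 0 of 253 microRNAs (0%), and 6.72% of the microRNAs and 0 of the 5 members had an unadjusted p under 0.05. The fold changes had 3 members higher and 2 lower and a median of 0.14 against 0.067 for all. The comparisons with RIPC+LAD share its 2 samples, so the higher values of miR-206 in them are not separate results.

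**Figure D3:**
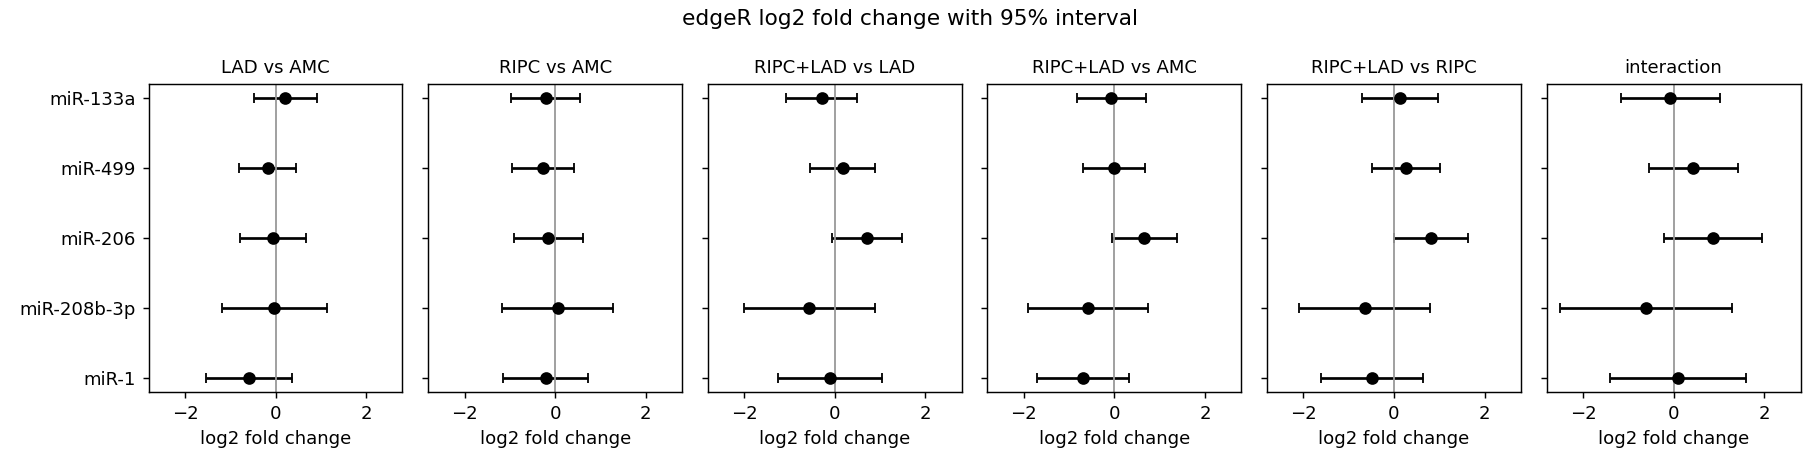
Log2 fold change of the 5 detected members from edgeR (horizontal axis) with its 95% interval in the 5 comparisons of 2 groups and for the interaction. Every interval reached 0, and miR-206 against RIPC came nearest to leaving it, from -0.0022 to 1.63.

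Whether the difference after ligation depended on preconditioning was tested as an interaction, the RIPC+LAD to RIPC difference minus the LAD to AMC difference. MiR-206 had the greatest value of the members, 0.87 ± 0.51 with an interval from -0.22 to 1.96 and an edgeR adjusted p of 0.476, and it ranked 56 of 253 by p. MiR-499 was at 0.44 ± 0.46, with an interval from -0.55 to 1.42. The interaction called 0 of 253 microRNAs (0%), while 12.3% of them and 0 of the 5 members had an unadjusted p under 0.05. In it 3 members were above and 2 below 0, with a median of 0.10 against 0.049 for all. Over the 5 comparisons and the interaction, the 30 member values ran from -0.69 to 0.87, with 0 of them at an unadjusted p under 0.05 in edgeR and a smallest adjusted p of 0.309. DESeq2 and limma-voom also called 0 of the members.

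The members also differed in their spread over the 10 samples. MiR-499 had a coefficient of variation of 12.9% for counts per 100000, which ranked 6 from the lowest of 253, where the median was 33.8%. Counting error alone would give 19.2% at its depth, which is more than was measured. In the edgeR fit, the biological coefficient of variation was 0.205 for miR-499, 0.182 for miR-206 and 0.203 for miR-1. These are model estimates drawn toward those of the other microRNAs, for which the common value was 0.287, and not measured spreads. All 10 samples of miR-499 lay between 33.5 and 46.9 per 100000, and its group means ran from 37.5 to 42.4, with SDs of 2.86 to 8.95.

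MiR-206 had a coefficient of variation of 26.9%, where counting alone would give 25.2%, and miR-1 had 35.0%, where counting alone would give 38.6%. MiR-133a was at 24.3% against 16.1% from counting. MiR-208b-3p was at 59.4% against 31.2%, which ranked 222 from the lowest of 253. The ratio of the measured to the counting value was 0.674 for miR-499 and 1.90 for miR-208b-3p, and its median over all detected microRNAs was 1.59.

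**Figure D4:**
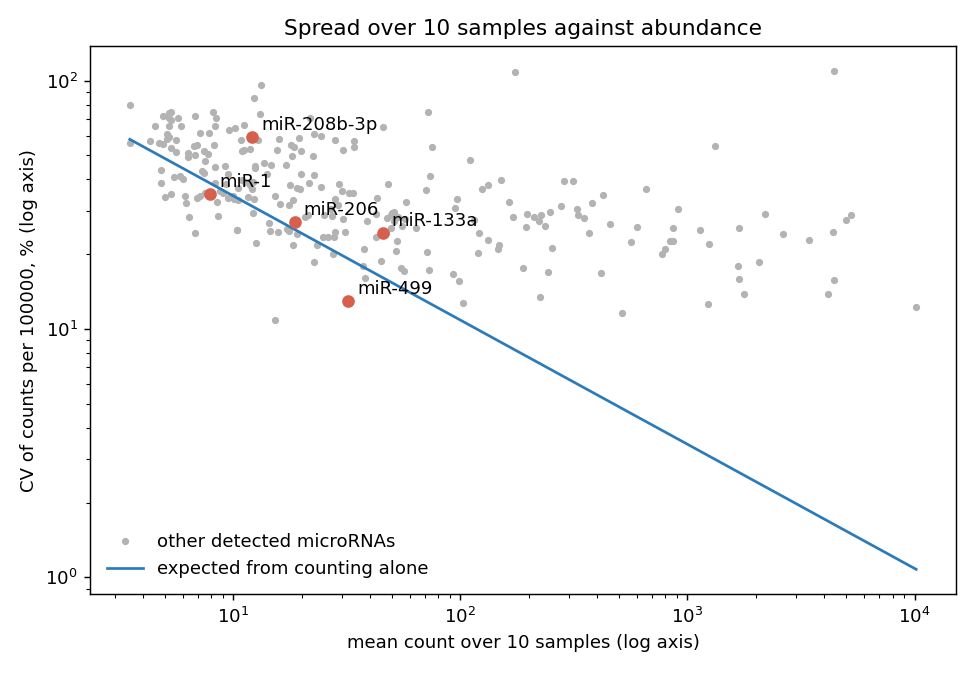
Coefficient of variation of counts per 100000 over the 10 samples (percent, log axis) against the mean count (log axis) for the 253 detected microRNAs in grey and the 5 members in red, with the value that counting alone would give as a line. MiR-499 lay under the line at 12.9%, and miR-208b-3p above it at 59.4%.

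The 5 detected members were weakly correlated with each other. Over the 10 samples the Pearson correlation of log2 CPM between pairs of members ran from -0.41, for miR-206 with miR-208b-3p, to 0.28, for miR-1 with miR-133a, a pair made from the same locus. The ratio of the miR-133a count to the miR-499 count was between 0.930 in RIPC+LAD 2 and 2.00 in LAD 2. These correlations are descriptions over 10 samples, in each of which the probes share the library, its depth and the treatment. Counting error lowers such correlations. The spread was 0.905 times that from counting alone for miR-1, 1.07 times for miR-206 and 0.674 times for miR-499. For pairs with these members, a weak correlation therefore cannot show that the levels vary separately.

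The detected microRNAs with the pattern nearest to each member were taken by the highest Pearson r of log2 CPM over the same 10 samples. For miR-206 they were miR-200b (r = 0.86, rho = 0.71), which had 1 to 9 counts and was above the threshold in 2 samples, miR-29a (r = 0.82, rho = 0.76) and miR-154 (r = 0.81, rho = 0.83). For miR-133a they were miR-324-5p (r = 0.76), miR-136 (r = 0.76) and miR-22 (r = 0.75). For miR-499 they were miR-145 (r = 0.76), a microRNA of vascular smooth muscle, miR-199a-3p (r = 0.76) and miR-125b-3p (r = 0.76). MiR-1 was nearest to miR-674-5p (r = 0.75), miR-3558-5p (r = 0.68) and miR-322 (r = 0.65). Of these, miR-3558-5p had 2 to 13 counts and was above the threshold in 2 samples. MiR-208b-3p was nearest to miR-3594-5p (r = 0.79), miR-3595 (r = 0.76) and miR-410 (r = 0.69). The spread of miR-1 and miR-499 was below that from counting alone, and the part of counting error in their nearest patterns was not tested.

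Other microRNAs associated with heart and muscle were followed as a list of 8 probes (miR-22, miR-31, miR-195, miR-199a-3p, miR-199a-5p, miR-214, miR-378 and miR-489). Of these 6 were detected, and 0 of the 6 passed the adjusted threshold of edgeR in any comparison, with 0 to 2 of them at an unadjusted p under 0.05. MiR-22, abundant in heart and muscle, had 516 to 2275 counts, and miR-378, which in mouse lies in a regulator gene of mitochondrial metabolism, had 9 to 50. MiR-489, known from quiescent muscle stem cells of the mouse, had 25, 9 and 5 counts in LAD and 1 and 4 in RIPC+LAD, where its edgeR adjusted p was 0.102. Both RIPC+LAD samples were below the threshold, so no fold change is given. MiR-195 had 2 to 18 counts, and miR-214 and miR-31 were above the threshold in 0 samples.

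Blood and vessels are other sources of RNA in a tissue punch. The summed levels of miR-144 and miR-451, which erythrocytes make, were at 11.8 and 13.6 per 100000 in RIPC+LAD, against 15.3 to 30.1 in AMC, 21.1 and 32.7 in RIPC and 16.6 to 49.0 in LAD. The vessel microRNAs miR-126, miR-143 and miR-145 together were at 2412 and 2663 per 100000 in RIPC+LAD and 2103 to 3450 in the other groups. Most of this sum was miR-126, with 813 to 3158 counts, against 3 to 20 for miR-143 and 49 to 259 for miR-145. All 5 of these probes were detected, and edgeR called 0 of them in any comparison, also at an unadjusted p under 0.05. The erythrocyte sums include background. In RIPC+LAD 1 and 2, miR-144 had 3 and 2 counts and miR-451 had 8 and 9, where the negative means were 2.88 and 2.63. MiR-144 was above the threshold in 2 of the 10 samples and miR-451 in 8. Of 4 probes listed for oligodendrocytes, the myelin-forming cells, 3 were detected (miR-219-2-3p, miR-219-5p and miR-338) and miR-219-1-3p was not. Their summed level was 983 and 1766 per 100000 in RIPC+LAD, against 2001 to 5145 in LAD, 1421 to 3640 in AMC and 1262 and 3099 in RIPC. All 3 had values below 0 on the log2 scale for RIPC+LAD against LAD (median -1.05), AMC (median -0.81) and RIPC (median -0.44), where edgeR called 0 of them, with 1 at an unadjusted p under 0.05 against LAD. Of the 6 neuron-enriched microRNAs, 4 were higher and 2 lower in RIPC+LAD against LAD (median 0.33). Against AMC 5 were higher and 1 lower (median 0.094), and against RIPC 4 were higher and 2 lower (median 0.35). EdgeR called 0 of these 6, with 2 at an unadjusted p under 0.05 against LAD, 1 against AMC and 1 against RIPC. The part of blood, vessels, oligodendrocytes or neurons in the members' levels was not tested.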

How the data were processed

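MicroRNAs were counted by the authors with NanoString nCounter in punched dorsal vagal complex RNA of 10 rats, without pooling of samples. The deposited table holds raw counts per probe, with a lowest value of 1, so zeros may have been set to 1. For the counting software, a name was not given in the sources used here. A second deposited table, of log2 values in 150 rows, equals log2 of the count per 100000 microRNA counts for its 144 rows matched by name. It holds 2 of the members, miR-133a and miR-499, and was used in an alternative.

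The 253 of 420 microRNA probes above the mean plus 2 SD of 8 negative probes in at least 2 samples were scaled by TMM. EdgeR 4.0.16 (R 4.3.3) fitted all 10 samples together by group and gave its quasi-likelihood F test. P-values were adjusted by Benjamini-Hochberg over all 253, with a threshold of 0.05. SE is the size of the log2 fold change divided by the root of F, and log2 CPM used a prior count of 2. Correlation and spread are descriptions. Poisson intervals are 95% and cover counting error only. Animals carry their own numbers in the labels, so p-values measure the spread between animals; what the prefix of these numbers marks is unknown here. Chi-square per degree of freedom between 2 samples of 1 group was 8.37 to 49.1, so no library was counted as a repeat.

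Alternatives were DESeq2 1.42.0, limma 3.58.1 (voom, and the deposited log2 values), other scalings, subtraction of the negative mean, other detection rules, fits to just the compared groups, a random block for the animal number prefix, covariates for POS_A set and ligation control, and leaving out each sample. Added later were fits inside 1 POS_A set and a fit without LAD 2 and LAD 3. The members and lists were chosen with earlier results of these data known. All members were named, with the 3 nearest patterns of each, and the marker lists were given as counts and summed levels with some of their microRNAs named. MicroRNAs called under alternatives were named after their values were seen.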

Additional observations from a re-analysis of the deposited data

How the results depend on the processing

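The count of called microRNAs was 0 in the 6 comparisons and moved as follows. In LAD vs AMC it was 4 within the high POS_A set, which holds LAD 1 alone of the LAD samples (miR-34b, miR-34c, miR-204 and miR-448). In RIPC+LAD vs LAD it was 50 with scaling to the positive controls, miR-206 among them, 1 with the animal number prefix as a random block (miR-489; block correlation -0.23) and 3 without LAD 2 and LAD 3 (miR-204, miR-34b and miR-448), where LAD 1 alone was assumed to vary like the other groups. In RIPC+LAD vs AMC DESeq2 called 1, miR-3590-5p, which edgeR called without AMC 3 or without LAD 1, so that leaving out 1 sample gave 0 to 1. In RIPC+LAD vs RIPC it was 8 with only the groups compared (miR-127, miR-185, miR-204, miR-210, miR-23b, miR-3590-5p, miR-448 and miR-449c-3p) and 2 within the low POS_A set, with RIPC 1 the lone RIPC sample (miR-204 and miR-34c). The interaction gave 1 with the prefix block (miR-489), 2 without LAD 2 and LAD 3 (miR-204 and miR-34b) and 0 to 1 with 1 sample left out (miR-489 without RIPC 1). Of the 7 probes, 4 were detected with mean plus 3 SD of the negative probes as the threshold and 6 with their mean. Of 711 member values under alternatives, 67 had the other sign, 643 kept the sign without being called and 1 was called, miR-206 in RIPC+LAD vs LAD with scaling to the positive controls. In the 3 comparisons with RIPC+LAD, 71 of 71 alternative values of miR-206 were above 0. These values are refits of the same counts and share the RIPC+LAD samples, so they are not separate results. Signs turned for miR-133a in LAD vs AMC (-0.29) and RIPC+LAD vs LAD (0.69) and for miR-1 in RIPC+LAD vs RIPC (0.13) with scaling to the positive controls, which put the medians of all microRNAs at -0.46, 0.98 and 0.55. MiR-206 in LAD vs AMC was at 0.082 with scaling to the top 100 microRNAs, 0.00089 with the 3 SD threshold and 0.060 with the ligation control as a covariate, which also turned miR-499 in RIPC+LAD vs LAD (-0.031) and miR-208b-3p in RIPC+LAD vs AMC (0.046). With 1 sample left out, miR-206 in LAD vs AMC ran from -0.31 to 0.13, miR-133a in RIPC vs AMC from -0.42 to 0.17, miR-499 in RIPC+LAD vs LAD from -0.14 to 0.30 and miR-1 in RIPC+LAD vs RIPC from -0.90 to 0.033. The fits within a POS_A set and without LAD 2 and LAD 3 were chosen after seeing the data. The causes were not tested. No paired analysis was possible because each animal belongs to 1 group and the labels give no replicate number shared between groups. Depth limits miR-1, miR-208b-3p and miR-206 most, at 3 to 28 counts a sample.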
